A study of Mus musculus with 8 samples.

Results

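The genes described here were Nav3, Emc2, Asz1, Grin3a, Sema3e, Sri, Rab38, Foxp1, Rsu1 and Pter, 10 of the 22810 genes with deposited reads in mouse blastocysts. They were picked by symbol because their maternal alleles had more reads than their paternal alleles in both directions of a reciprocal cross and because they were not in earlier catalogues of imprinted genes. The division of their reads between the parents chose them and is therefore given as a description. The results that were tested concern the strain of the allele, the total level in each cross, and genes other than these 10.

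Single blastocysts were collected on embryonic day 3.5 after natural matings of B6 (C57BL/6) and cast (Mus musculus castaneus) mice and were lysed without culture. The forward cross had a B6 mother and a cast father (3 embryos, numbered 1, 2 and 3), and the reverse cross a cast mother and a B6 father (5 embryos, numbered 1, 2, 3, 5 and 7). The labels name no transgene, deletion or treatment, and the embryos were not matched for sex. Each library came from polyadenylated RNA of 1 whole embryo, amplified with SMART-Seq2, a full-length method for very small inputs. The values are raw counts of reads that span a SNP between the strains, so that for every gene an embryo gives 1 count from the mother's and 1 from the father's allele. The maternal allele is B6 in the forward and cast in the reverse cross, which separates an effect of the parent from an effect of the strain.

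Genomic imprinting is the expression of a gene from the allele of 1 parent, set by marks such as DNA methylation or H3K27me3 that the gametes pass on. A maternal excess of RNA in an early embryo can come from the embryo's own maternal allele, from RNA that the oocyte stored, or from maternal cells carried along with the embryo. SNP reads carry the same allele in all of these cases, so they cannot be told apart for a single gene. In a whole embryo, fewer cells that express a gene and less RNA per cell cannot be told apart either. The number of SNPs differs between genes, so that read numbers were not compared between genes.

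Between 1060063 and 1632695 SNP-spanning reads were assigned to genes in each embryo, and the B6 allele held 57.4% to 58.3% of them in each embryo. The maternal share over all genes was therefore 57.7% to 58.3% in the forward and 41.9% to 42.6% in the reverse embryos. Shares of single genes below are not adjusted for this. Markers of trophectoderm, inner cell mass and primitive endoderm, the lineages of a blastocyst, were present, with 22 of their 23 genes reaching the read minimum given below. Reverse embryo 1 stood apart by its trophectoderm markers, at 1317 CPM (counts scaled to the embryo's SNP-spanning reads) against 3945 to 5270 in the other embryos. The inner cell mass and primitive endoderm markers of reverse embryo 1, at 873 and 1037 CPM, lay within the range of the other embryos. Whether its low trophectoderm level bears on the genes described here was not tested. Forward embryo 1 stood apart by its leukocyte and macrophage markers. The 15 genes of that list had 1465 maternal and 3 paternal reads there, 52 and 71 maternal reads in forward embryos 2 and 3, and 2 to 7 in the reverse embryos.

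Primer pairs that the study listed for RT-PCR across a SNP were matched to GENCODE transcripts and are shown for 5 genes. They are shown because they mark the transcript stretch chosen for reading the alleles by a separate method, whose outcome is not given here. Letters are 5′ to 3′, the sense primer first.
Nav3, sense: gtgaactctagaggaagtgagc
Nav3, antisense: ggactggcgtgaagaagaaga
Emc2, sense: cagctttttgcttagaggagctg
Emc2, antisense: tcctagcagtacaaggcaagc
Asz1, sense: tgacgccaatcatgtatgctg
Asz1, antisense: cctgggcgttaacttcggc
Foxp1, sense: agaacattcgtacgccacttttg
Foxp1, antisense: atctaaccagcaaccactcagtt
Sri, sense: agagatatgtccggcacgatg
Sri, antisense: acaactccttgttgacccgaa
In mm10, the Nav3 pair spans chr10:109714282-109719086 on the minus strand (exons 26 to 29 of 39, coding sequence) and gives a product of 474 bases. The Emc2 pair runs from the coding sequence of exon 8 to the 3′ UTR in exon 11 of 11 (chr15:43510826-43527649, plus strand, 540 bases). Those of Asz1 (chr6:18077170-18077256, minus strand, 87 bases, coding sequence of exon 5 of 13) and Foxp1 (chr6:98927382-98927781, minus strand, 400 bases, 3′ UTR in exon 19 of 19) each lie in 1 exon. The Sri pair spans chr5:8063260-8064597 on the plus strand (coding sequence, exons 5 to 7 of 8, 302 bases).

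A fit across the 12565 autosomal genes whose highest count in any allele library was 10 or more was made to compare the maternal with the paternal allele of other genes. In edgeR's quasi-likelihood test with Benjamini-Hochberg adjustment, 40 genes (0.318%) passed an adjusted p threshold of 0.1 in the maternal and 139 (1.11%) in the paternal direction. Of the 10 genes 9 were among the 40, the exception being Pter, but this contrast chose them, so that neither their calls nor their p-values support the bias. The median log2 fold change of maternal over paternal reads was 3.23 for the 10 genes and 0.01 for all genes tested. All 10 reached the read minimum. Counting a gene in an embryo only with at least 5 reads, the maternal allele held the majority in 70 of 75 combinations of gene and embryo, and the 5 exceptions were Foxp1 in reverse embryos 2, 5 and 7, Rab38 in forward embryo 1 and Pter in reverse embryo 5.

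**Figure D1:**
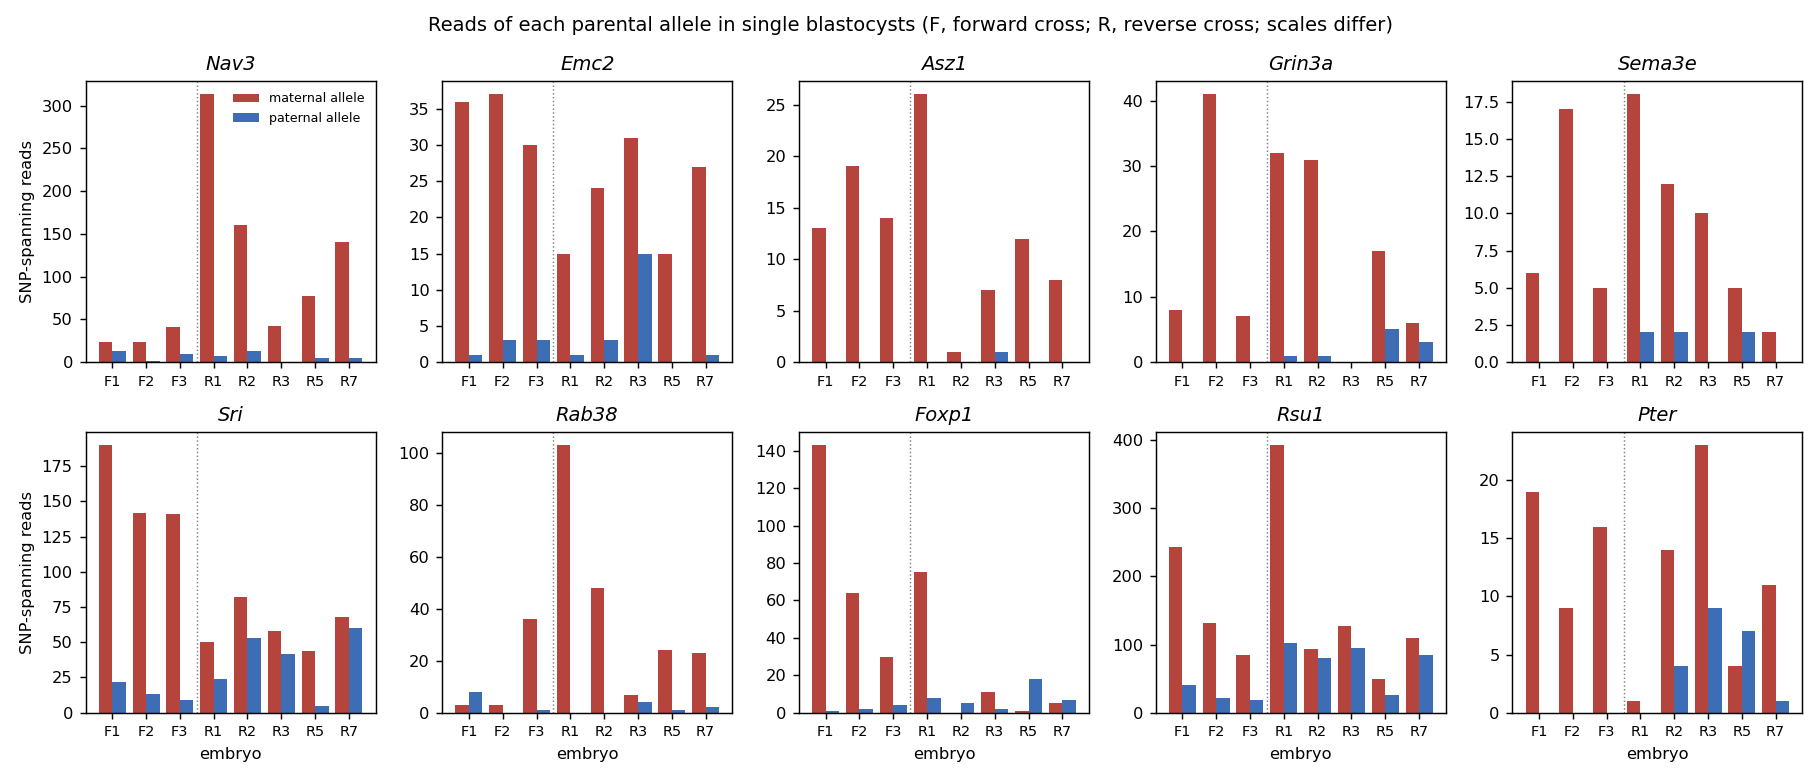
Maternal (red) and paternal (blue) SNP-spanning reads of each gene in forward embryos 1, 2 and 3 (F) and reverse embryos 1, 2, 3, 5 and 7 (R); each panel has its own scale. Reverse embryo 1 held the most maternal reads of Nav3, Asz1, Sema3e, Rab38 and Rsu1, and forward embryo 1 those of Sri and Foxp1.

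Asz1, which encodes a germ cell protein of the piRNA pathway (chr6:18050964-18109061, minus strand), came nearest to expression from 1 allele. It had 13, 19 and 14 maternal reads and no paternal read in the 3 forward embryos. In reverse embryos 1, 2, 3, 5 and 7 it had 26, 1, 7, 12 and 8 maternal reads, and the only paternal read was in embryo 3. Thus 100 of 101 reads were maternal (99.0%, 95% Wilson interval 94.6% to 99.8%), and the 46 forward reads allow a paternal share of up to 6.52%. These intervals cover counting error only, because amplified reads without molecular identifiers are not independent molecules.

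The log2 fold change of Asz1 was 5.87 (SE 0.85), a value that depends on the prior count of the fit because there was 1 paternal read. With 1 embryo left out it ran from 5.54, without reverse embryo 1, to 6.83, without reverse embryo 3.
The 250 bases before its RefSeq start site (GRCm38.p6, chr6:18109062-18109311, minus strand) held 15 CpG dinucleotides, against a median of 6 over 32851 promoter windows of this length (CG counted on the strand shown; 27.3% of windows held at least 15). They are shown because this gene had the highest maternal share, with each CpG in capitals:
Asz1 promoter: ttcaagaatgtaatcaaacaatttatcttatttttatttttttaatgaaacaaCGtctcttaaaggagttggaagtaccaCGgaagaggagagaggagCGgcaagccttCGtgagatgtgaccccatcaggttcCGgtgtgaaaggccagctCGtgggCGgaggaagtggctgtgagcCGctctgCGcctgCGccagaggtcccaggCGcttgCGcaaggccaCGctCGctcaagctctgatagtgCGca
RefSeq windows were at hand for 6 of the 10 genes. Rsu1 had 12 CpGs, Pter 8, Sema3e 7 and Sri 5, while the 3 alternative Foxp1 windows had 34, 11 and 3. No methylation was measured in these embryos.

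Emc2 encodes a subunit of the complex that inserts proteins into the membrane of the endoplasmic reticulum (chr15:43477229-43527763, plus strand). Its forward embryos had 36, 37 and 30 maternal and 1, 3 and 3 paternal reads. The reverse embryos had 15, 24, 31, 15 and 27 maternal and 1, 3, 15, 0 and 1 paternal reads. Reverse embryo 3 thus held 15 of the 27 paternal reads, and its maternal share of 67.4% was the lowest, while the other embryos were at 88.9% or above. Forward embryos averaged 93.6% ± 3.33 (SD, n = 3) and reverse embryos 89.3% ± 12.9 (SD, n = 5), and the ranges overlapped. Leaving out reverse embryo 3 moved the log2 fold change from 3.13 to 3.87.

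Sri, the gene of the calcium-binding protein sorcin (chr5:8046078-8069379, plus strand), had a maternal excess that differed in size between the crosses. Forward embryos had 190, 142 and 141 maternal and 22, 13 and 9 paternal reads, or 91.7% ± 2.19 maternal (SD, n = 3). In the reverse embryos there were 50, 82, 58, 44 and 68 maternal and 24, 53, 42, 5 and 60 paternal reads, or 65.9% ± 14.4 (SD, n = 5). Each forward embryo was at least 89.6% maternal, and in the reverse cross only embryo 5 (89.8%) reached that range. In embryos 3 and 7 of the reverse cross, the 95% Wilson interval of the share reached below 50% (58.0%, 48.2% to 67.2%, and 53.1%, 44.5% to 61.6%). Over all genes, the maternal share was 42.2% in both embryos, below either interval.

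Rab38 encodes a small GTPase of melanosomes and related organelles (chr7:88430273-88491572, plus strand). In the forward embryos it had 3, 3 and 36 maternal and 8, 0 and 1 paternal reads. In the reverse embryos it had 103, 48, 7, 24 and 23 maternal and 0, 0, 4, 1 and 2 paternal reads. Forward embryo 1 was therefore mostly paternal (27.3% maternal, Wilson interval 9.75% to 56.6%), forward embryo 2 had 3 reads in all, and the maternal excess of the forward cross came from embryo 3. Without that embryo the log2 fold change went from 3.51 to 2.38, and without forward embryo 1 the fold change was 4.47.

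Rsu1 encodes a protein that binds the integrin-linked kinase complex at cell adhesions (chr2:13076821-13271415, minus strand). The forward embryos had 244, 132 and 85 maternal and 40, 22 and 19 paternal reads, and the reverse embryos 393, 94, 128, 49 and 109 maternal and 103, 80, 95, 26 and 84 paternal reads. On average 84.5% ± 2.36 (SD, n = 3) of the forward and 62.5% ± 10.3 (SD, n = 5) of the reverse reads were maternal. Only Rsu1 and Grin3a had shares that did not overlap between the crosses, although reverse embryo 1 (79.2%) came close to forward embryo 3 (81.7%). Of 10424 genes with a read in every embryo, which leaves out Grin3a, 32.7% did not overlap in this way. Its log2 fold change was the smallest of the 10 (1.69, SE 0.42), with values of 1.43, without reverse embryo 1, to 1.78, without reverse embryo 7.

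Pter, which encodes a phosphotriesterase-related protein (chr2:12924041-13003455, plus strand), lies 73.4 kb from Rsu1 on the opposite strand. All of its 44 forward reads were maternal (19, 9 and 16), which allows a paternal share of up to 6.82%. Reverse embryos had 1, 14, 23, 4 and 11 maternal and 0, 4, 9, 7 and 1 paternal reads. In this cross the share ranged from 36.4% in embryo 5 to 91.7% in embryo 7 among embryos with at least 5 reads. The log2 fold change of Pter was 2.94 (SE 0.89).

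Nav3 encodes a neuron navigator, a protein bound to the growing ends of microtubules (chr10:109681259-110456204, minus strand). It had 24, 24 and 41 maternal and 13, 1 and 9 paternal reads in the forward embryos. In the reverse embryos it had 313, 160, 42, 77 and 140 maternal and 7, 13, 0, 5 and 5 paternal reads. The majority was maternal in all 8 embryos, with shares of 64.9% to 96.0% in the forward cross and of 92.5% or more in the reverse cross. Its log2 fold change was 3.34 (SE 0.54).

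Foxp1, a gene for a forkhead transcription factor (chr6:98925338-99522721, minus strand), was split most unevenly between embryos. It had 143, 64 and 30 maternal and 1, 2 and 4 paternal reads in the forward embryos. In the reverse embryos it had 75, 0, 11, 1 and 5 maternal and 8, 5, 2, 18 and 7 paternal reads. Every forward embryo was at least 88.2% maternal, whereas in the reverse cross embryos 1 and 3 were mostly maternal (90.4% and 84.6%) and embryos 2, 5 and 7 mostly paternal (0%, 5.26% and 41.7%). The mean share of the reverse cross was 44.4% ± 42.6 (SD, n = 5), and reverse embryo 1 held 75 of its 92 maternal reads.

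Forward embryo 1, the embryo with the leukocyte and macrophage markers, held 43.5% of all maternal Foxp1 reads, which was the highest share that forward embryo 1 had of any of the 10 genes. Without it, 80.2% of the remaining reads were maternal, and the log2 fold change went from 3.04 to 2.57. The part of the marker genes in the Foxp1 reads was not tested.

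Grin3a encodes a subunit of NMDA-type glutamate receptors (chr4:49661611-49845744, minus strand), and Sema3e encodes a secreted guidance cue that binds plexin-D1 (chr5:14025276-14256689, plus strand). Grin3a had 8, 41 and 7 maternal reads and no paternal read in the forward embryos. In the reverse embryos it had 32, 31, 0, 17 and 6 maternal and 1, 1, 0, 5 and 3 paternal reads, with no read at all in embryo 3. Forward embryo 2 held 41 of the 56 forward reads, and without it the log2 fold change went from 4.14 to 3.21.

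Sema3e had the fewest reads of the 10, 81 in all. It had 6, 17 and 5 maternal reads and no paternal read in the forward embryos, and 18, 12, 10, 5 and 2 maternal and 2, 2, 0, 2 and 0 paternal reads in the reverse embryos. The maternal allele held the majority in all 7 embryos with at least 5 reads. Forward embryo 2 held 17 of the 28 forward reads, and without it the log2 fold change went from 3.89 to 3.31.

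**Figure D2:**
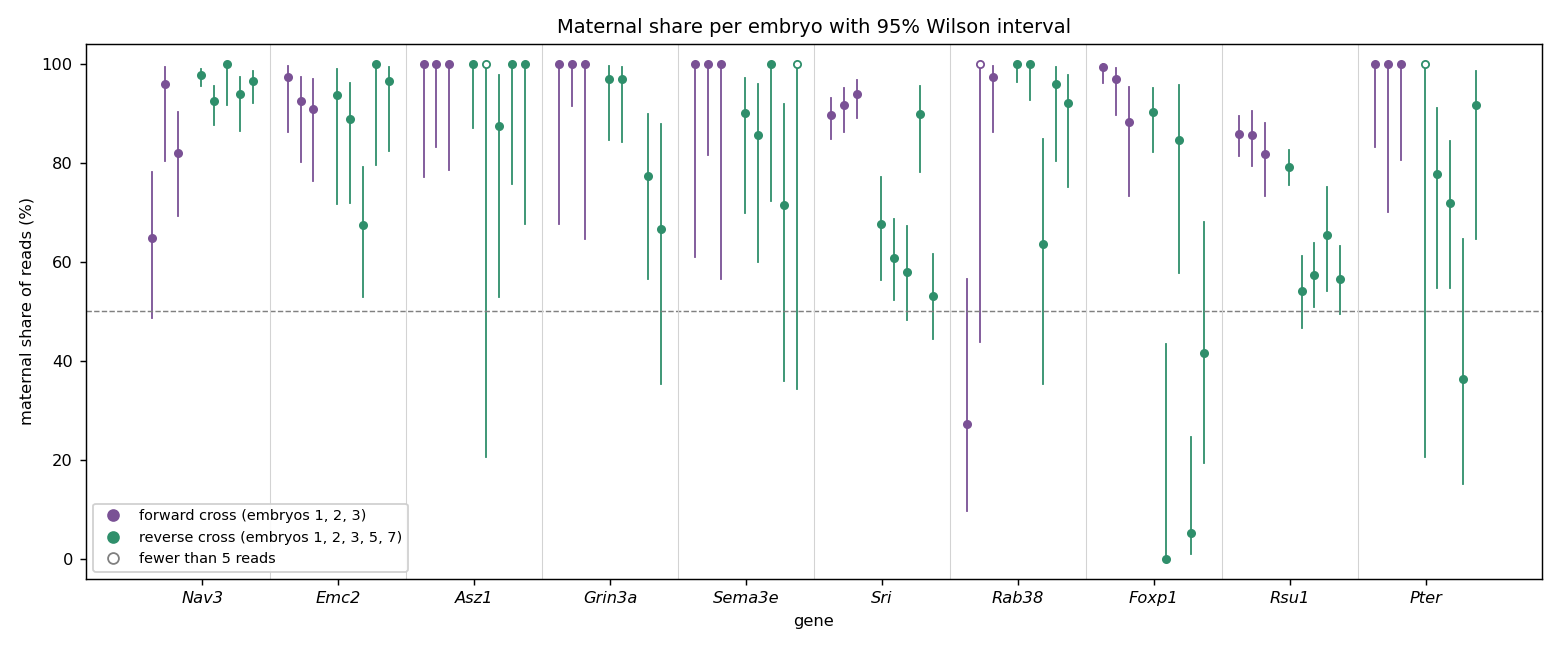
Maternal share of the reads (%) of each gene in forward (purple) and reverse (green) embryos, with 95% Wilson intervals for counting error; open points have fewer than 5 reads and the dashed line is at 50%. The 5 filled points below the line are Rab38 in forward embryo 1, Foxp1 in reverse embryos 2, 5 and 7 and Pter in reverse embryo 5.

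The size of the maternal excess moved with single embryos to an unequal degree. With 1 embryo left out, the log2 fold change of Rab38 ran from 2.38 to 4.47, that of Grin3a from 3.21, without forward embryo 2, to 4.67, without reverse embryo 5, and that of Foxp1 from 2.44, without reverse embryo 1, to 3.52, without forward embryo 3. Sri moved least, from 1.97 to 2.21. These ranges describe the reads by which the genes were chosen and were not tested.

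**Figure D3:**
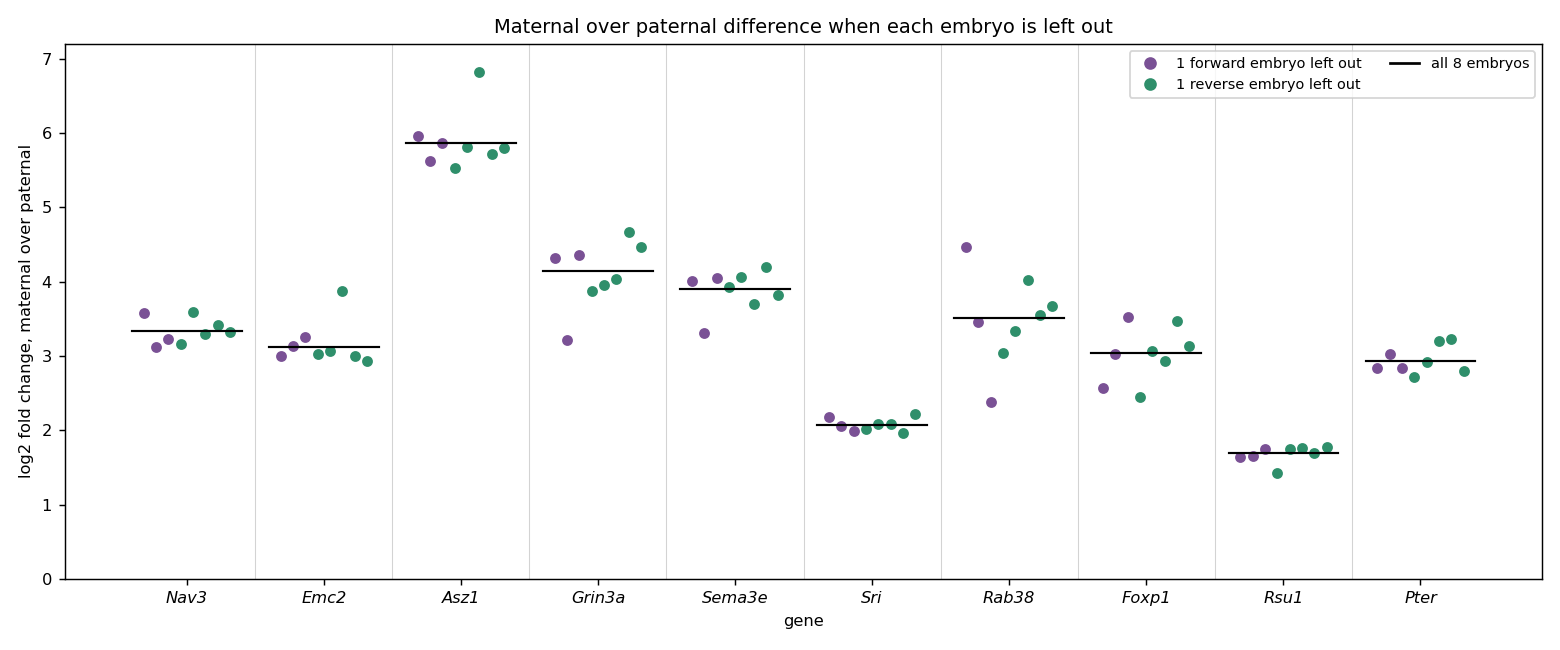
Log2 fold change of maternal over paternal reads for each gene with all 8 embryos (black line) and with 1 forward (purple) or 1 reverse (green) embryo left out, as a description. Rab38 has the widest range, 2.38 to 4.47, and Sri the narrowest, 1.97 to 2.21.

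Reverse embryo 3 had the lowest median maternal share of the 8 embryos over the genes with at least 5 reads (71.9%, with medians of 83.5% to 98.3% in the others). Oocyte transcripts, such as those of the egg coat, were summed over 13 genes of the table to see whether they moved with it. Among the 13 was the X-linked Bmp15, with 9 maternal reads and no paternal read. The shares that follow are of the summed oocyte reads. The maternal share of the oocyte transcripts was 56.1% in reverse embryo 3 and 71.1% to 93.5% in the other embryos. The other embryos did not run in the same order, since forward embryo 1 had the highest median of the 10 genes (98.3%) with an oocyte share of 78.2%, and reverse embryo 2 a median of 85.7% with the highest oocyte share. The oocyte reads were few, with 15 to 58 maternal and 2 to 25 paternal reads in an embryo, and the part of oocyte RNA in the 10 genes was not tested. Of the 6 oocyte genes tested, none was called by edgeR or by DESeq2, 3 had an unadjusted p of at most 0.05, and their median log2 fold change was 2.11 (2.39 over the 4 tested without forward embryo 1).

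**Figure D4:**
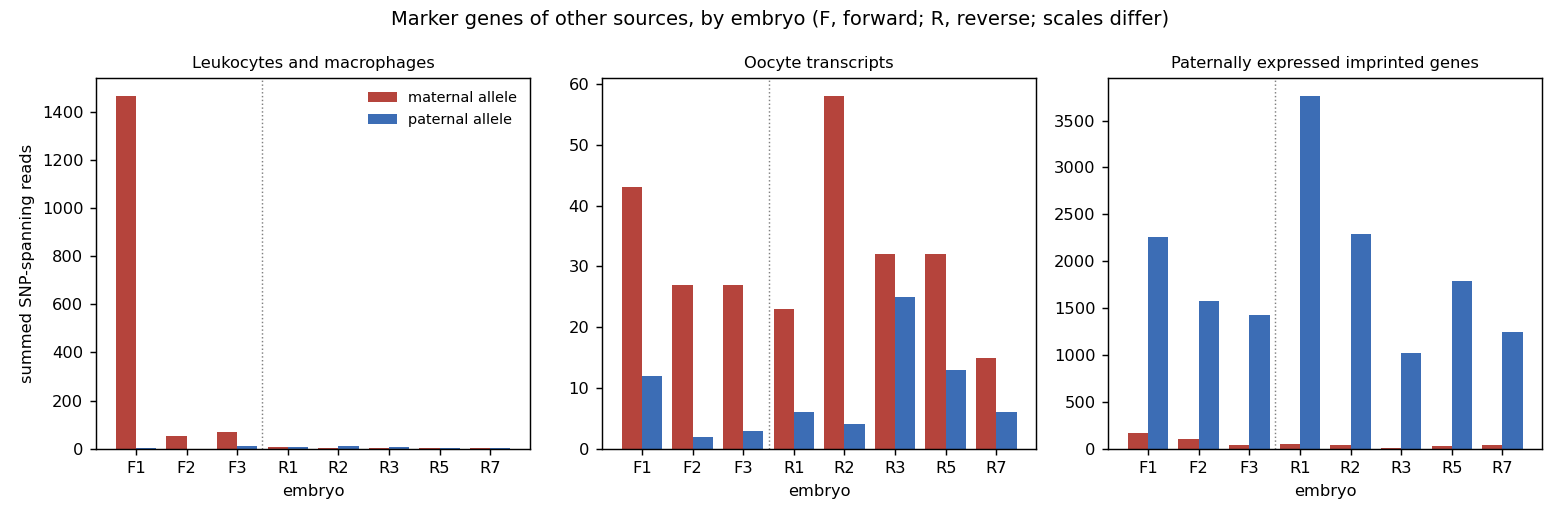
Summed maternal (red) and paternal (blue) SNP-spanning reads of 3 gene lists in forward (F) and reverse (R) embryos; each panel has its own scale. Leukocyte and macrophage markers reached 1465 maternal reads in forward embryo 1, oocyte transcripts had more maternal than paternal reads in all 8 embryos, and paternally expressed imprinted genes had 1021 to 3761 paternal reads.

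Lyz2 and C1qb, both macrophage genes, were the called members of the leukocyte list (2 of 8 tested). Lyz2 had 1144 maternal and 5 paternal reads and C1qb 279 and 1. Without forward embryo 1 neither was called, with adjusted p of 0.27 and 0.187. Red blood cell markers had 201 maternal and 7 paternal reads, of which the X-linked Alas2 gave 199 and 6. Cumulus cell markers had 75 reads in all, and uterine and oviduct markers had 808 maternal and 708 paternal reads with none of 5 genes called by edgeR or DESeq2 and none at an unadjusted p of at most 0.05. Under the same test, 17 of 21 paternally expressed imprinted genes were called paternal (1.11% of all genes). Of 15 maternally expressed ones, 3 (Meg3, Rian and H19) were called maternal (0.318% of all genes). H19 also differed by strain (B6 over cast 7.50, adjusted p = 0.000841) and was not called without a strain term (adjusted p = 0.126). Igf2r, Kcnq1 and Ppp1r9a of the second list were called paternal. Kcnq1 had 41 maternal and 1423 paternal reads, and the overlapping Kcnq1ot1 36 and 1422. Igf2r had 144 and 473, and the overlapping Airn 45 and 687. Whether reads of the overlapping transcripts were counted for Kcnq1 and Igf2r was not tested. Without forward embryo 1, Igf2r was not called (adjusted p = 0.189). With the alleles paired by embryo, Lyz2 and Meg3 were called as well, H13 of the second list was called maternal (log2 fold change 0.56, adjusted p = 0.0977), Rian was not called (adjusted p = 0.114), and C1qb and H19 could not be fitted.

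Next, it was asked whether the strain of the allele adds to its parent of origin. A strain effect makes the maternal excess larger in 1 cross than in the other, and selection for the same direction in both crosses limits how large it could be in these genes. Nav3 and Sri differed by strain, in opposite directions. The cast allele of Nav3 had more reads (log2 fold change of B6 over cast -1.78, SE 0.54, adjusted p = 0.034) and the B6 allele of Sri had more (1.06, SE 0.37, adjusted p = 0.0664). Accordingly, the Nav3 share was larger where the mother was cast, and the Sri share where the mother was B6. In all, 15.5% of the 12565 genes differed by strain, so that 2 of 10 is near the background.

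The other 8 genes were not called. Foxp1 had 1.66 (95% interval 0.21 to 3.12, adjusted p = 0.143) and Rab38 -1.50 (-3.04 to 0.05, adjusted p = 0.229). For Pter the value was 1.19 (-0.64 to 3.02), for Grin3a 0.76 (-1.0 to 2.52) and for Sema3e 0.56 (-1.06 to 2.18). Rsu1 had 0.42 (-0.45 to 1.28), Asz1 0.40 (-1.13 to 1.93) and Emc2 0.33 (-0.86 to 1.52). Apart from that of Foxp1, these intervals include no difference as well as differences of more than 1 on the log2 scale.

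The strain calls depended on single embryos and on the pairing. Nav3 was not called without forward embryo 1 (adjusted p = 0.234) or 3 (0.133). Sri was called only without reverse embryo 1 or 5 and lost without each of the other 6, with adjusted p up to 0.219 and values of 0.95 to 1.16. Without forward embryo 1, none of the 10 genes was called by edgeR (9.90% of all genes were), and 2 had an unadjusted p of at most 0.05. Leaving out reverse embryo 1 called Foxp1 as well (2.87, adjusted p = 0.00397), where 20.6% of all genes were called. Leaving out forward embryo 3 called Rab38 (-2.86, adjusted p = 0.069), where 10.4% of all genes were called. With the alleles paired by embryo, 5 genes were called (25.5% of all genes), namely Nav3, Sri, Foxp1 (1.97, adjusted p = 0.0356), Pter (2.51, 0.0694) and Rsu1 (0.51, 0.0807). Over all genes, 1386 calls were toward B6 and 559 toward cast, and with 1 library size per embryo the split was 2251 and 325.

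**Figure D5:**
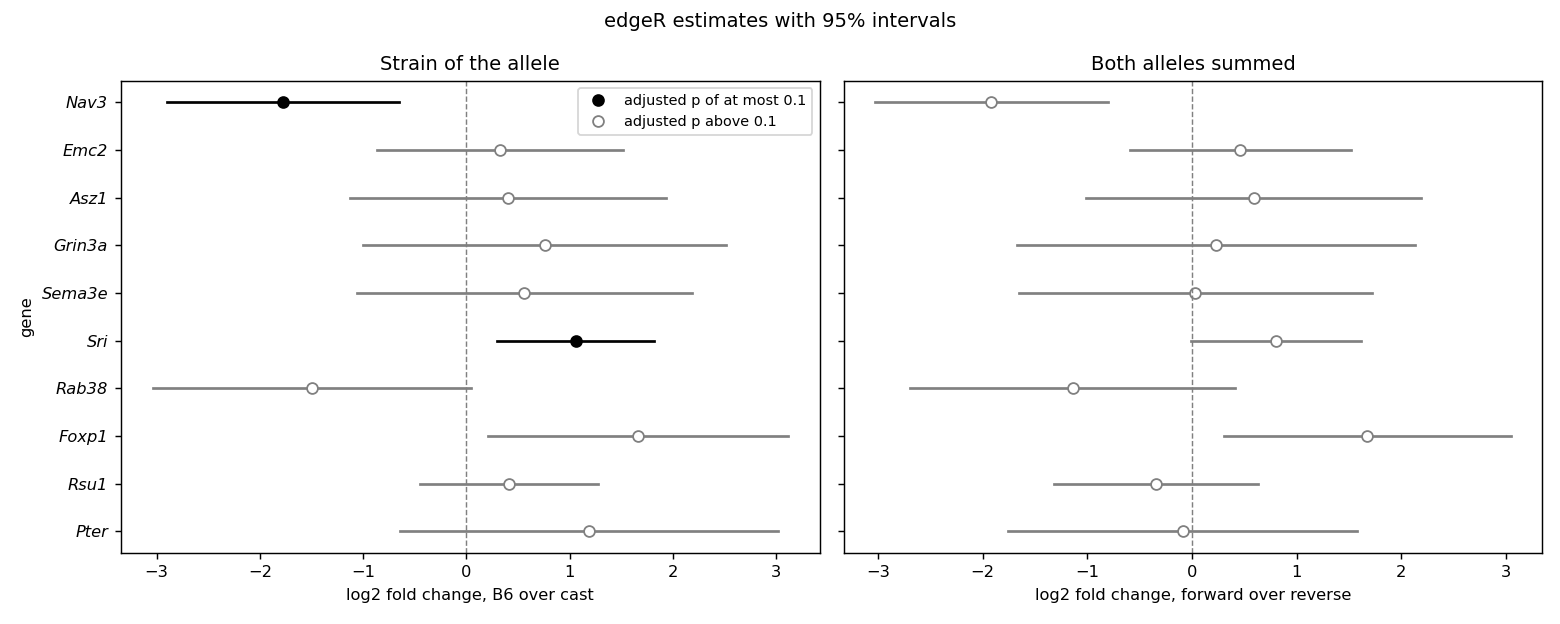
Log2 fold changes with 95% intervals from edgeR for the strain of the allele (B6 over cast, left) and for the level of both alleles summed (forward over reverse cross, right). Filled points have an adjusted p of at most 0.1, which holds for Nav3 and Sri on the left and for no gene on the right.

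The level of both alleles together was then compared between the crosses, in CPM, the counts of a gene scaled to the SNP-spanning reads of its embryo. None of the 10 genes was called by edgeR, where 0.0688% of 13077 genes were, 2 of them had an unadjusted p of at most 0.05, and DESeq2 called Nav3 (1.04% of all genes). Nav3 had 22.7, 21.7 and 39.1 CPM in the forward embryos and 213, 108, 28.0, 61.6 and 137 in the reverse embryos. Its reverse embryos were higher except for embryo 3, which lay within the forward range, and the log2 fold change of forward over reverse was -1.92 (SE 0.52, adjusted p = 0.355 in edgeR and 0.0462 in DESeq2). Without reverse embryo 3, edgeR called it too (-2.13, adjusted p = 0.0842, with 0.409% of all genes called).

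Foxp1 had 88.2, 57.3 and 26.6 CPM in the forward embryos and 55.1, 3.13, 8.68, 14.3 and 11.3 in the reverse embryos. Reverse embryo 1 alone lay among the forward embryos. The log2 fold change was 1.68 (SE 0.64, adjusted p = 0.564). Without reverse embryo 1 it was 2.55 (adjusted p = 0.021, with 1.28% of all genes called), and without forward embryo 1 it was 1.26. Sri had a mean of 127 ± 8.88 CPM (SD, n = 3) over the forward and 71.6 ± 32.8 (SD, n = 5) over the reverse embryos, a log2 difference of 0.80 (interval -0.01 to 1.61). The remaining genes lay between -1.14 (Rab38) and 0.59 (Asz1), and the levels of the 2 crosses overlapped for each of the 10 genes.

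Imprinted genes often lie in clusters, so genes within 250 kb were examined. Apart from the pair of Rsu1 and Pter, 8 neighbours of 5 of the genes reached the read minimum, and none was called by edgeR or DESeq2, with 1 and 2 of them at an unadjusted p of at most 0.05. The nearest to a call was Ctsc, the gene of cathepsin C, 119 kb from Rab38 (log2 fold change 1.16, SE 0.47, adjusted p = 0.456). It had 277 maternal and 29 paternal reads in the forward but 135 and 252 in the reverse cross. Once the alleles were paired by embryo, Ctsc was called (adjusted p = 0.064), as were 1.02% of all genes in the maternal direction. St7 beside Asz1 had -0.80 (SE 0.41) and Eif3e beside Emc2 -0.34 (SE 0.70). Nearly all Eif3e reads were from the B6 allele, 48 and 0 in the forward and 1 and 121 in the reverse cross, maternal first.

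Around Rsu1, Cubn, the gene of the receptor cubilin 4.92 kb away, had 220 maternal and 196 paternal reads, Trdmt1 had 56 and 27, and the noncoding Gm13270, which starts 0.186 kb from Rsu1, had 22 and 47. Beside Grin3a, Rnf20 had 368 and 518 and Mrpl50 203 and 232. Eif4e3, 102 kb from Foxp1, had 20 maternal reads and no paternal read but stayed under the minimum. It shares its stretch with Gm20696, a gene model that also overlaps Foxp1 on the same strand. Annotated genes overlapped 7 of the 10 genes, 5 of them on the opposite strand (an antisense RNA for Sri and Sema3e among them). None of these overlapping genes had reads of its own in the table, and no source says whether strand was used in counting. Elsewhere, Kcnq1 and the overlapping transcript Kcnq1ot1 had nearly equal counts (41 and 1423, 36 and 1422 reads, maternal first). Whether both hold the same reads was not tested. The methods kept a gene only where its reads belonged without ambiguity to 1 transcript, but whether that step came before the deposited counts is not stated, so that reads of such pairs are treated as uncertain. Genes of the imprinted lists were far away, the nearest being Sfmbt2, 2.48 Mb from Rsu1 and 2.33 Mb from Pter.

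Lists of relatives or partners were made for 9 of the 10 genes, with none for Pter. They held 78 genes in all, of which 48 were tested. None was called for the parent of the allele by edgeR, 2 had an unadjusted p of at most 0.05, and DESeq2 as well as edgeR with the alleles paired by embryo called Capn2 and Parva, both toward the paternal allele. Their median log2 fold change was -0.05, beside 0.01 for all genes. The germ cell genes listed with Asz1, those of the piRNA pathway among them, had 620 maternal and 683 paternal reads and 7 tested members. Tex19.1 gave 332 and 315 of these reads. The other subunits of the endoplasmic reticulum complex listed with Emc2 had 4169 and 4407 reads and 7 tested members. Of these reads the X-linked Mmgt1, which was not tested, gave 376 and 72. Foxp4, a relative of Foxp1, had 89 and 88 reads, and the navigators Nav1 and Nav2 117 and 174, and 373 and 370.

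Among the listed genes, Capn2, a calpain subunit in the protein family of sorcin, had 130 maternal and 412 paternal reads (log2 fold change -2.17, SE 0.62, adjusted p = 0.122). Parva, an adaptor of the integrin-linked kinase complex to which Rsu1 binds, had 190 and 605 (-1.77, SE 0.50, adjusted p = 0.115). With the alleles paired by embryo the adjusted p was 5.23e-05 for Capn2 (-2.70) and 0.00132 for Parva (-2.17). By strain, 7 of the 48 were called toward B6 (Grin1, Sema3d, Capn2, Rab27a, Parva, Parvb and Nav1) and Lims2 toward cast, near the background of 11.0% and 4.45% of all genes.

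Genes whose total level ran most like that of each of the 10 over the 8 embryos were sought among 9329 genes with at least 100 reads. Pearson correlations of log2(CPM + 1) were 0.92 to 0.99 over the 8 embryos, and with so few points, between 2 and 450 genes reached at least 0.9 for a single gene. The most alike were Pms2 for Nav3, Plekhm1 for Emc2, Tiparp for Asz1, Chp1 for Grin3a, Taf1a for Sema3e, Cdc42ep1 for Sri, Sp3os for Rab38, Snx18 for Foxp1, Agpat4 for Rsu1 and Urah for Pter. Their own reads were not uniformly maternal. Chp1 had 237 maternal and 340 paternal reads and Pms2 201 and 262, while Agpat4 had 657 and 386.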

How the data were processed

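The deposited table holds, for every gene, the raw counts of reads over SNPs from either strain in each embryo, without normalization. According to the methods, the authors aligned reads to mm10 with STAR (version 2.5.2b in the submitters' processing notes, another version in the methods), dropped reads mapping to several places, kept those over annotated SNPs and counted them with Allelome.Pro, and they removed 2 embryos. The numbering of embryos says nothing of litters. For the total level in each cross, p-values therefore measure the spread between single embryos. For parent and strain they measure the spread between allele libraries, with the alleles of an embryo treated as independent. The exception is the fit with the alleles paired by embryo. Gene positions came from GENCODE M21 by symbol (18286 genes), RefSeq (2999) or a synonym (412), with 1113 left unmatched. X-linked and unplaced genes were left out of the fits, while summed reads of a list include its X-linked genes.

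Here the counts were fitted with edgeR 4.0.16 (R 4.3.3, limma 3.58.1), TMM factors, terms for strain and parent over 16 allele libraries, the quasi-likelihood test and Benjamini-Hochberg adjustment over all genes tested. Sums of both alleles were fitted with the cross as the term. The depth of each embryo limits genes such as Sema3e to a few reads, for which intervals are wide. The fits were checked on simulated data, drawn with independent libraries and without a strain effect. That check therefore could not show how pairing of the alleles affects the fits. Both alleles come from the same embryo and are thus paired (correlations of their deviations 0.0823 to 0.488), so that a fit with the embryo as a block was an alternative, which gave no usable standard error for 499 of the 12565 genes. Others were RLE factors, DESeq2 1.42.0, 2 other filters, 1 library size per embryo, legacy = FALSE, unplaced genes included, no strain term, and leaving out each embryo. Named genes were the 10, their neighbours with enough reads, called or counted list genes, and the most alike gene of each. Foxp4, Nav1, Nav2 and Eif4e3 were named after their values were seen. The 10 genes and all lists were chosen with earlier results of these data known.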

Additional observations from a re-analysis of the deposited data

Results flagged for a closer look

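In the 5 reverse embryos, 20 sets of values of the 10 genes were examined for 1 value far from the rest. The sets were maternal shares and CPM, counts scaled to the embryo's SNP-spanning reads. By this rule chance flags about 1 in 20, a rate that need not hold for shares from few reads. The shares are also the values by which the genes were chosen, so that their flags are a description. The rule picked out 3. The maternal share of Asz1 in reverse embryo 3 was 87.5%, from 8 reads, while all reads of the other embryos were maternal, so that 1 paternal read set the flag. The share of Rab38 in the same embryo was 63.6%, from 11 reads, while the others were at 92.0% or above. The level of Foxp1 in reverse embryo 1 was 55.1 CPM, while the others were between 3.13 and 14.3.

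The difference between maternal and paternal reads itself differed between the crosses for Nav3 and Sri in edgeR's test of strain. The log2 fold change of B6 over cast was -1.78 for Nav3 (adjusted p = 0.034) and 1.06 for Sri (adjusted p = 0.0664), and the maternal share was 81.0% against 96.2% and 91.7% against 65.9% in the forward and the reverse cross.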

How the results depend on the processing

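Over the 17 alternatives, 8 to 10 of the 10 genes were called maternal without leaving out an embryo, and 5 to 10 with 1 left out, counts that do not support the bias because this contrast chose the genes. The number of genes tested changed with the setting, so each count over all genes is given with its share. The number over all genes, 40 (0.318%), was 65 (0.517%) with DESeq2 and 130 (0.618%) without a filter. It was 22 (0.224%) with 10 reads in at least 4 embryos and 128 (1.02%) with the replicate block of embryos. With 1 embryo left out it was 17 to 57 (0.140% to 0.478%). By strain, 4 of the 10 were called without a filter, 5 with the block and 0 to 3 with 1 embryo left out, and of all genes 2729 without a filter, 3207 with the block and 1206 to 2453 with 1 embryo left out. For the total level, 1 of the 10 was called with DESeq2 and without a filter and 0 to 1 with 1 embryo left out. Of all genes, 136 (1.04%) were called with DESeq2 and 143 (0.679%) without a filter. There were 3 (0.0306%) with 10 reads in at least 4 embryos and 21 (0.161%) with the block of embryo numbers. With 1 embryo left out there were 3 to 160 (0.0236% to 1.28%). Embryos with the same number in both crosses had correlations of 0.126, 0.0016 and 0.103. The alleles of 1 embryo had values as low as 0.0823, so these correlations cannot tell whether the numbers mark pairs. The causes were not tested, apart from fewer genes or embryos by construction.

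No value that changed sign was called. With the block, Cubn was at -0.022 and Eif3e at 0.46 (maternal over paternal), and Sema3e at -0.62 and Pter at 0.37 (forward over reverse), and with 10 reads in at least 4 embryos Sema3e was at -0.011. With 1 embryo left out, the maternal over paternal values of Cubn ran from -0.39 to 0.33, of Eif3e from -1.09 to 0.075 and of Mrpl50 from -0.30 to 0.18, the B6 over cast values of Emc2 from -0.11 to 0.52, of Grin3a from -0.16 to 1.04 and of Sema3e from -0.017 to 0.77, and the forward over reverse values of Grin3a from -1.31 to 0.67, of Sema3e from -0.91 to 0.39 and of Pter from -0.39 to 0.46. Few reads per embryo limit Asz1, Sema3e, Grin3a and Pter.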
